A study of Arabidopsis thaliana with 2 samples.

Results

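The 33 genes described here encode the machinery that brings nascent proteins to the endoplasmic reticulum (ER), moves them through or into its membrane and adds N-linked glycans to them. They were taken by locus from the deposited tables as the known Arabidopsis genes for the SEC61 translocon, the signal recognition particle (SRP) and its receptor, the oligosaccharyltransferase (OST), SEC62 and the SEC63-like protein ERdj2, a rule that uses no measured value, although earlier results of these data were known when the pathway was picked. All 33 loci had an exon row, among 25224 genes in the exon table, and 31 of them had a mean exon value of at least 1 RPM (reads scaled to the depth of the library), as had 16879 genes in all. The annotation named SRP, SEC61, ribophorin, DAD or related products for most of them and gave a generic product only for some, such as AT2G18770 (a P-loop nucleoside triphosphatase) and AT3G20920 (a translocation protein-like protein).

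Membrane-bound polysomes (MBPs), the ribosome-loaded transcripts that sediment with microsomes, had been prepared from whole wild-type Columbia seedlings at 13 days of age, with no mutation or treatment in either group. For the MBP ribo-seq library, polysomes were cut to monosomes with RNase I and the RNA shielded by each ribosome was sequenced after rRNA was depleted. For the MBP mRNA-seq library, RNA of the same fraction was sequenced without ribosome footprinting. Each group held 1 library, so no difference below has a replicate check and none carries a p-value across replicates. A binomial test of reads, given at the end as an alternative, compares these libraries only. No library of free or total polysomes belongs to the series, and the study's other RNA fractions are not analysed here, so no value below says how strongly a transcript prefers membranes.

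In the textbook pathway, SRP binds a signal sequence as it leaves the ribosome, and its SRP54 subunit recognises both the signal and the membrane-bound receptor. The receptor hands the ribosome to the SEC61 channel, in which the many-spanning α subunit forms the pore and the small tail-anchored β and γ subunits flank it. OST sits beside the channel and transfers a preassembled glycan to asparagines of the incoming chain, with STT3 as its catalytic subunit. SRP works in the cytosol, so its subunits are made as soluble proteins, while SEC61, OST, SEC62, ERdj2 and receptor β are membrane proteins that themselves have to be inserted into the ER.

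The 2 libraries held 38438720 (ribo-seq) and 66958225 (mRNA-seq) reads, as recovered from the smallest step of the deposited values, of which 19298407 and 56098896 lay in the exons of the isoforms used here. Where no read was seen, up to 3 reads remain possible, which is 0.0780 RPM for ribo-seq and 0.0448 RPM for mRNA-seq. Among the seedling markers, the leaf genes RBCS1A, RCA and CA1 reached 5248 to 9535 RPM in ribo-seq and 5526 to 13066 RPM in mRNA-seq. The root hair markers EXPA7 and PRP3 lay at 0.338 and 1.30 RPM in ribo-seq and at 0.0299 and 0.329 RPM in mRNA-seq, the lowest of the 11 markers examined, and EXPA7 was below the mRNA-seq floor. In whole seedlings, fewer cells of a type and less RNA per cell cannot be told apart.

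The exon tables behave as coding sequence, and the ratio used here is the log2 of (ribo-seq exon RPM + 1) over (mRNA-seq exon RPM + 1). Its median over the 16879 genes was -0.99, and -0.36 after each library was rescaled to its exon sum. Its level thus depends on the scaling, and each gene is given by its relative ratio, the ratio minus that median. Intervals in brackets are exact binomial 95% intervals of the reads. They cover counting error only, since PCR copies are not independent molecules. A level that is set against another gene is given in RPM per kb of coding sequence.

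Over the 31 genes past the filter, ribo-seq values relative to mRNA-seq values lay slightly above those of the median gene. Their median relative ratio was 0.24, with 20 genes above 0 and 11 below. Only AT3G60540 (SEC61β) and AT4G24920 (SEC61γ) lay at least 2-fold above the median of all genes, as did 5.59% of all genes tested, and only STT3A lay at least 2-fold below it, as did 11.8%. Together these 3 of 31 genes stood against 17.4% of all genes. Values ran from 1.38 to 79.5 RPM in ribo-seq and from 1.34 to 192 RPM in mRNA-seq. Per kb, 26 of the 31 genes lay above the median gene in mRNA-seq and 28 in ribo-seq. The sign of the median ratio depended on the expression filter. Without one, the median of the 33 genes was -0.13, as the many unexpressed genes moved the median of all genes to -0.59. Relative to genes in the same of 10 equal bins of coding length, 0 of the 31 genes were 2-fold away, while 3.23% of all genes lay 2-fold above and 9.38% below.

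**Figure D1:**
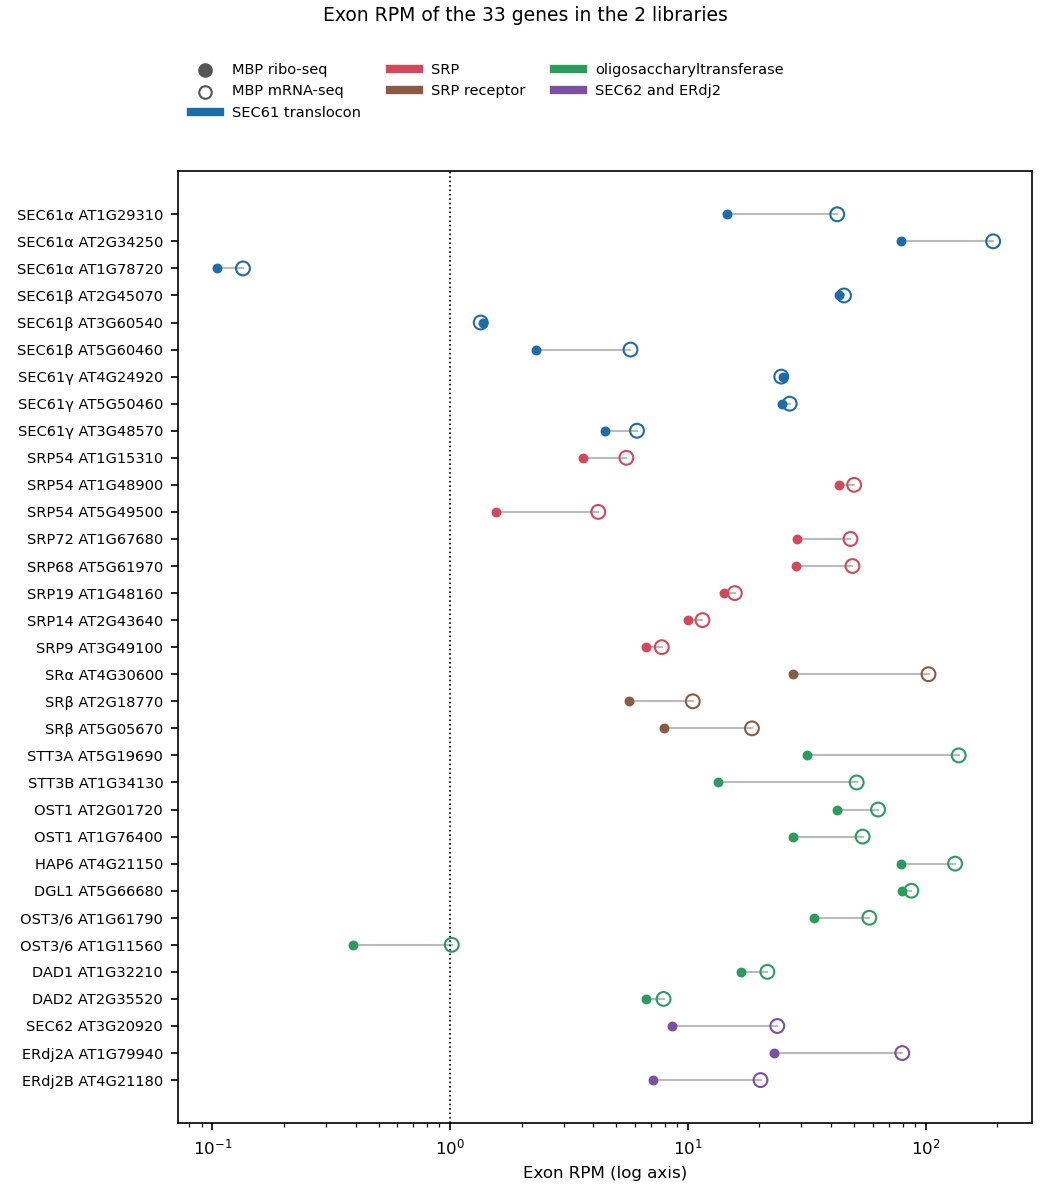
Exon RPM of each of the 33 genes in the 2 libraries, on a log axis, with filled points for MBP ribo-seq, open rings for MBP mRNA-seq and colours for the complex. The dotted line marks 1 RPM. Ribo-seq lay below mRNA-seq in 29 of the 31 genes past the filter, and the gap was widest for STT3A, STT3B and SRα. Most genes tested had ribo-seq below mRNA-seq too: 94.6% of them had a lower ratio than AT4G24920, whose ribo-seq value lay just above its mRNA-seq value.

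Each SEC61 subunit had more mRNA-seq RPM per kb than any other subunit of the pathway, and the pore subunit differed from the small subunits in its ratio. The main SEC61α gene, AT2G34250 (chromosome 2, 14462023 to 14464879), had 79.1 ribo-seq RPM and 192 mRNA-seq RPM, a relative ratio of -0.28 (-0.34 to -0.23). Its near-copy AT1G29310 (chromosome 1, 10252241 to 10254792) had 14.6 and 42.5 RPM, a relative ratio of -0.49 (-0.63 to -0.36). Both lay below the median of all genes. The third locus, AT1G78720 (chromosome 1, 29605457 to 29607678), had 4 ribo-seq and 9 mRNA-seq reads and did not pass the filter. All coordinates are those of the TAIR10.1 annotation.

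The first 2 SEC61α copies are alike over parts of their coding sequence, the start among them, which is shown because it is one of the identical stretches. The first 30 coding bases of each gene follow, 5′ to 3′, with the start codon in capitals (chr1:10252662-10252691, chr2:14462635-14462664 and chr1:29605629-29605658, all on the plus strand).
AT1G29310: ATGggaggaggatttagagttttgcatttg
AT2G34250: ATGggaggaggatttagagttttgcatttg
AT1G78720: ATGgtaggagggtttagagtgattcatctt
The first pair was identical over this stretch, shared runs of up to 53 bp and was 88.7% identical over the 1428 bp of coding sequence (99.4% of residues). Of its 28-base windows, 4.14% recurred exactly and 33.05% matched the other copy with at most 2 mismatches, against 3.00% of the latter kind for AT1G78720. Most windows thus differed between the copies. How reads that fit several places were assigned in the ribo-seq values was not stated, so part of the split between AT1G29310 and AT2G34250 is uncertain.

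SEC61β and SEC61γ, the small subunits that are inserted by their C-terminal anchor, had relative ratios near 1 in all but a pair of genes. AT2G45070 (SEC61β, chromosome 2, 18586974 to 18588452) had 43.2 ribo-seq RPM and 45.4 mRNA-seq RPM, a relative ratio of 0.92 (0.83 to 1.01). AT3G60540 (SEC61β, chromosome 3, 22374864 to 22375916) had 1.38 and 1.34 RPM, a relative ratio of 1.01, but this rested on 53 ribo-seq reads and its interval was wide (0.49 to 1.52). The third SEC61β gene, AT5G60460 (chromosome 5, 24316833 to 24318241), went against the others. It had 2.29 and 5.73 RPM, a relative ratio of -0.05 (-0.40 to 0.29), and its interval did not reach that of either other copy.

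The SEC61γ genes AT4G24920 (chromosome 4, 12819164 to 12820968) and AT5G50460 (chromosome 5, 20551132 to 20552670) were near-equal in both libraries. AT4G24920 had 25.1 ribo-seq RPM and 24.7 mRNA-seq RPM, a relative ratio of 1.01 (0.89 to 1.13). AT5G50460 had 24.9 and 26.8 RPM, a relative ratio of 0.89 (0.77 to 1.001). Their intervals overlapped, and the encoded proteins were 100% identical over 69 residues. AT3G48570 (chromosome 3, 18003818 to 18005272) was lower in level, at 4.50 and 6.11 RPM, with a relative ratio of 0.62 (0.35 to 0.88).

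SRP, the soluble particle, had ratios above the median of all genes in 7 of its 8 genes. The leading SRP54 gene, AT1G48900 (chromosome 1, 18084715 to 18087934), had 43.4 ribo-seq RPM and 50.0 mRNA-seq RPM, a relative ratio of 0.79 (0.70 to 0.87). AT1G15310 (SRP54, chromosome 1, 5268891 to 5272058) had 3.62 and 5.51 RPM and a relative ratio of 0.49 (0.20 to 0.78). AT5G49500 (SRP54, chromosome 5, 20077304 to 20080329) had 1.56 and 4.20 RPM and was the only SRP gene below 0, at -0.03 (-0.46 to 0.37) from 60 ribo-seq reads. SRP54 holds the GTPase and signal-binding domains of the particle. Its genes share 40.9% to 42.9% of their 28-base windows with one another at up to 2 mismatches, so the split among them is uncertain as well.

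SRP68 and SRP72, the large subunits that bind the SRP RNA as a heterodimer, lay closer to the median of all genes than the small subunits. Relative to genes in the same bin of coding length the order turned, with SRP72 at 0.68 and SRP68 at 0.45. The small subunits SRP19, SRP14 and SRP9 were then at 0.34, 0.30 and 0.29. SRP72 (AT1G67680, chromosome 1, 25365756 to 25368834) had 28.9 ribo-seq RPM and 48.3 mRNA-seq RPM, a relative ratio of 0.27 (0.17 to 0.37). SRP68 (AT5G61970, chromosome 5, 24888596 to 24893366) had 28.4 and 49.2 RPM, a relative ratio of 0.22 (0.12 to 0.32). Of the 28-base windows of SRP72, 16.5% recur exactly in the SRP72-like locus AT1G67650, which itself had 3.33 ribo-seq RPM and 6.86 mRNA-seq RPM.

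The small subunits were alike. SRP19 (AT1G48160, chromosome 1, 17786498 to 17789024), which helps SRP54 onto the RNA, had 14.2 ribo-seq RPM and 15.8 mRNA-seq RPM and the highest relative ratio of the particle, 0.85 (0.69 to 0.997). The Alu-domain subunits SRP14 (AT2G43640, chromosome 2, 18097400 to 18099136) and SRP9 (AT3G49100, chromosome 3, 18196308 to 18198492), which in mammals delay elongation, had relative ratios of 0.80 (0.62 to 0.98) and 0.80 (0.58 to 1.02). Their levels were 9.99 and 11.5 RPM for SRP14 and 6.69 and 7.77 RPM for SRP9, in ribo-seq and mRNA-seq respectively. The intervals of all of SRP19, SRP14 and SRP9 overlapped.

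Of the receptor subunits, SRα lay farthest from SRP. SRα (AT4G30600, chromosome 4, 14937840 to 14941208), the GTPase that docks SRP and is held at the membrane by SRβ, had 27.7 ribo-seq RPM and 103 mRNA-seq RPM, a relative ratio of -0.87 (-0.96 to -0.77). The anchor subunit SRβ came from AT2G18770 (chromosome 2, 8134566 to 8136646), with 5.67 and 10.5 RPM, and from AT5G05670 (chromosome 5, 1695717 to 1698191), with 7.93 and 18.6 RPM. The SRβ genes had relative ratios of 0.21 (-0.02 to 0.43) and -0.14 (-0.33 to 0.04). SRα lay below both of these intervals and below every SRP subunit. AT5G05670 also lay below the lowest SRP gene, AT5G49500 (-0.03), though their intervals overlapped. Relative to genes in the same bin of coding length, the SRβ genes were at -0.08 and -0.43, and the lowest SRP gene was at 0.09. AT5G05670 overlaps a coding gene on the opposite strand, AT5G05675, and whether reads were counted by strand was not stated.

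OST showed the widest range among the complexes, with its catalytic subunits lowest. STT3A (AT5G19690, chromosome 5, 6652306 to 6658708) had 31.8 ribo-seq RPM and 138 mRNA-seq RPM, a relative ratio of -1.09 (-1.18 to -1.01), at percentile 10.02 of all genes tested. STT3B (AT1G34130, chromosome 1, 12429846 to 12433236) had 13.4 and 51.3 RPM, a relative ratio of -0.87 (-1.01 to -0.74), at percentile 14.8. STT3A and STT3B are the alternative catalytic subunits, and both carry the conserved catalytic motif. The codons of this motif are shown in capitals with their neighbours, since it is the stretch that defines the subunit (chr5:6657097-6657123 and chr1:12431796-12431822, plus strand).
STT3A: gcatcaTGGTGGGACTATGGTtatcag
STT3B: atgtcgTGGTGGGACTATGGGtaccaa
The STT3 genes shared no run over 15 bp, and 0% of their 28-base windows matched each other at up to 2 mismatches, so reads of footprint length could be told apart between them.

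The OST subunits with a cleaved signal peptide had ratios above those of STT3. DGL1 (AT5G66680, chromosome 5, 26617399 to 26620704), the plant counterpart of OST48, had 79.5 ribo-seq RPM and 87.1 mRNA-seq RPM, a relative ratio of 0.86 (0.79 to 0.92). HAP6 (AT4G21150, chromosome 4, 11278403 to 11283885), the ribophorin II subunit, had 78.6 and 133 RPM, a relative ratio of 0.24 (0.18 to 0.30). Per kb of coding sequence, DGL1 and HAP6 were close in mRNA-seq (66.3 and 64.1 RPM per kb) and apart in ribo-seq (60.5 and 37.8 RPM per kb). The ribophorin I genes, here called OST1, had 42.2 and 63.1 RPM (AT2G01720, chromosome 2, 317030 to 320308) and 27.8 and 54.3 RPM (AT1G76400, chromosome 1, 28658554 to 28661710). Their relative ratios were 0.42 (0.34 to 0.50) and 0.05 (-0.05 to 0.15), and the intervals did not overlap.

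The remaining OST subunits were OST3/6, an oxidoreductase-like subunit, and DAD, a small subunit with several spans. OST3/6 came almost wholly from AT1G61790 (chromosome 1, 22814216 to 22816688), with 33.8 ribo-seq RPM and 58.0 mRNA-seq RPM and a relative ratio of 0.23 (0.14 to 0.32). The second OST3/6 locus, AT1G11560 (chromosome 1, 3881627 to 3882819), had 15 ribo-seq and 68 mRNA-seq reads and did not pass the filter. DAD1 (AT1G32210, chromosome 1, 11605606 to 11607866) had 16.7 and 21.6 RPM, and DAD2 (AT2G35520, chromosome 2, 14921473 to 14923025) had 6.63 and 7.90 RPM. With relative ratios of 0.64 (0.50 to 0.77) and 0.77 (0.55 to 0.99), DAD1 and DAD2 were the only genes above 0 in the group labelled many-spanning. OST subunits with a signal peptide, OST3/6 among them, were grouped apart from it whatever their number of spans.

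SEC62 and ERdj2, which in yeast and mammals serve post-translational import and couple the channel to lumenal BiP, all lay below the median. SEC62 (AT3G20920, chromosome 3, 7328576 to 7330751) had 8.56 ribo-seq RPM and 23.8 mRNA-seq RPM, a relative ratio of -0.39 (-0.56 to -0.21). ERdj2A (AT1G79940, chromosome 1, 30069519 to 30073440) had 23.1 and 79.8 RPM, a relative ratio of -0.75 (-0.86 to -0.65). ERdj2B (AT4G21180, chromosome 4, 11288892 to 11292389) had 7.15 and 20.2 RPM, a relative ratio of -0.39 (-0.58 to -0.20). The ERdj2 intervals did not overlap. Relative to genes in the same bin of coding length, SEC62 was at -0.43 and ERdj2A at -0.34, while ERdj2B was at 0.02. ERdj2B lies across a long non-coding RNA gene on the opposite strand, AT4G06985.

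**Figure D2:**
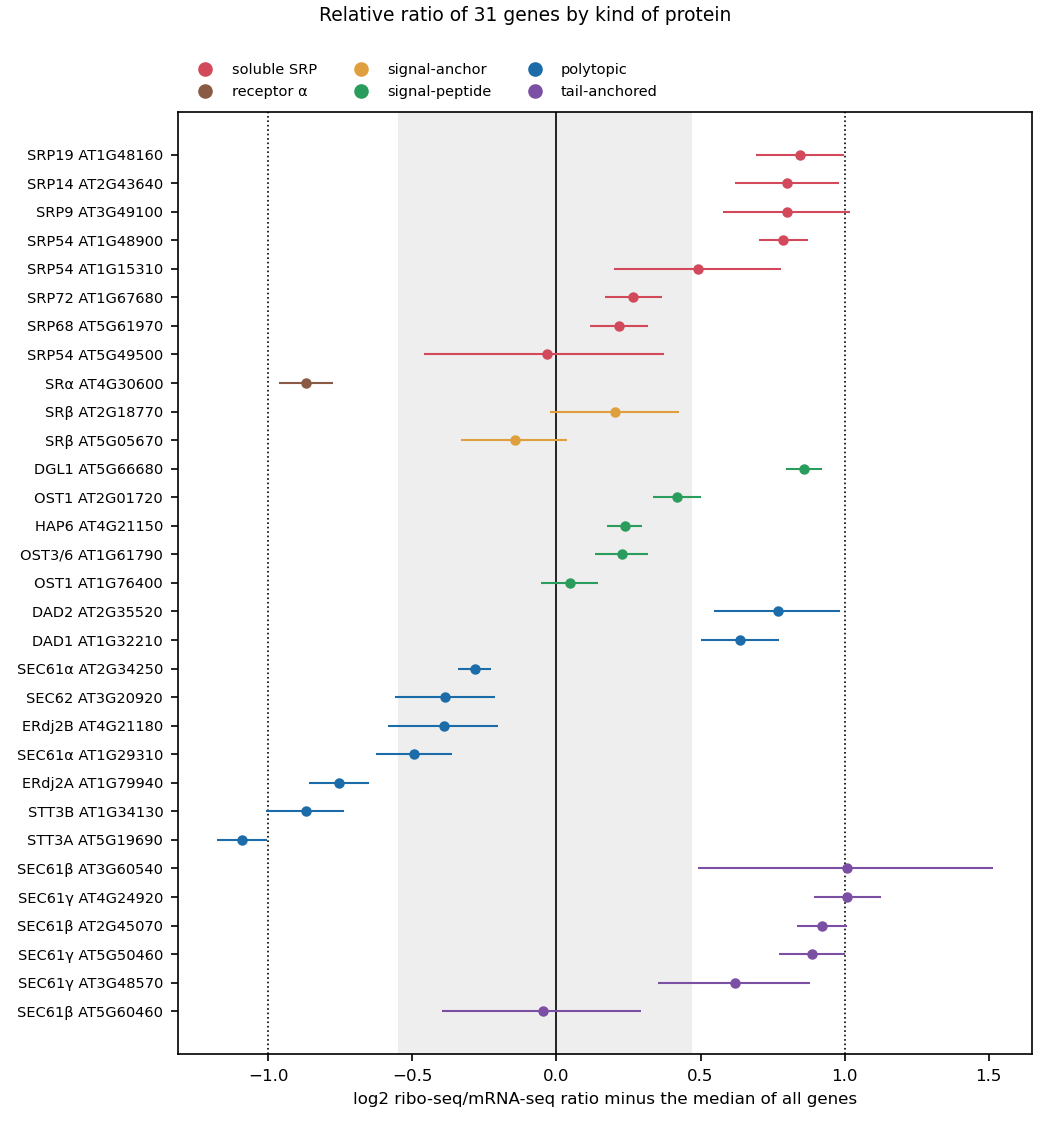
Relative ratio of the 31 genes past the filter, with exact binomial 95% counting intervals, grouped and coloured by how the protein reaches or meets the membrane. The grey band spans the quartiles of all genes (-0.55 to 0.47), the solid line their median and the dotted lines a 2-fold difference. Genes of the many-spanning (polytopic) group other than DAD1 and DAD2 lay left of 0, and tail-anchored subunits other than AT5G60460 lay right of the band. Signal-peptide OST subunits form their own group whatever their number of spans.

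To compare membrane with soluble subunits, SRα was set aside because it is peripheral, which left 22 membrane and 8 soluble genes past the filter. The median relative ratio was 0.22 for membrane subunits (range -1.09 to 1.01) and 0.64 for soluble subunits (range -0.03 to 0.85), a difference of -0.42. The classes overlapped. Of the 22 membrane genes, 9 lay below the lowest soluble gene, 8 within the soluble range and 5 above the highest. Below the lowest soluble gene lay 40.9% of the membrane genes and 48.2% of all genes, and above the highest lay 22.7% and 9.30%. All 8 soluble genes belong to SRP, so being soluble and being part of SRP cannot be told apart. Genes are not replicates of a class, and no test was made.

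The membrane class was not uniform. The group labelled many-spanning had a median relative ratio of -0.39 over 9 genes, the signal-peptide OST subunits 0.24 over 5 genes and the tail-anchored subunits 0.90 over 6 genes. Signal-peptide OST subunits were kept out of the many-spanning group whatever their number of spans, so these groups do not separate spans from signal peptides. Without the tail-anchored SEC61 subunits the median difference from the soluble subunits was -0.69, and without the 12 genes that have a close sequence copy it was -0.80 over 18 genes. The soluble genes then left were SRP68 and the short SRP19, SRP14 and SRP9 (312 to 438 bp), so this contrast also differs in coding length. When only genes that averaged 10 exon RPM or more were kept, the median difference was -0.74 over 22 genes. Of the 14 alternatives tried, the smallest difference was -0.28, with SRα counted as soluble. The direction was the same in each of these 14, which do not include the splits at a fixed coding length given below. Among genes under 500 bp the difference was 0.03.

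Coding length moved with these values. Across the 31 genes Spearman's rho of length and relative ratio was -0.71, and across 16825 genes it was -0.46, both as a description over genes that share 2 libraries. Genes in the shortest of 10 equal length bins (78 to 489 bp) had a median relative ratio of 0.51 and those in the longest (2538 to 16182 bp) of -0.66. The tail-anchored subunits were among the shortest genes at 210 to 330 bp, and STT3A and STT3B were the longest of the pathway at 2340 and 2208 bp. The part of length in the class difference was examined in 2 ways. Relative to genes of the same length bin, the difference between membrane and soluble subunits was -0.32, with medians of 0.08 and 0.39. Among genes from 1000 bp it was -0.60 (12 membrane and 5 soluble genes), and among genes under 500 bp it was 0.03 (8 and 3 genes).

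After the length adjustment, 21 of the 31 genes lay above genes of their own length. DGL1 and AT1G48900 (SRP54) were highest, both at 0.91. They were followed by SRP72 at 0.68 and HAP6 at 0.65, all of them genes of 1314 to 2076 bp. The lowest were STT3A at -0.68, SRα at -0.64, AT5G60460 (SEC61β) at -0.55 and STT3B at -0.46. AT3G60540 and AT4G24920, which had been 2-fold above the median of all genes, were then both at 0.50.

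**Figure D3:**
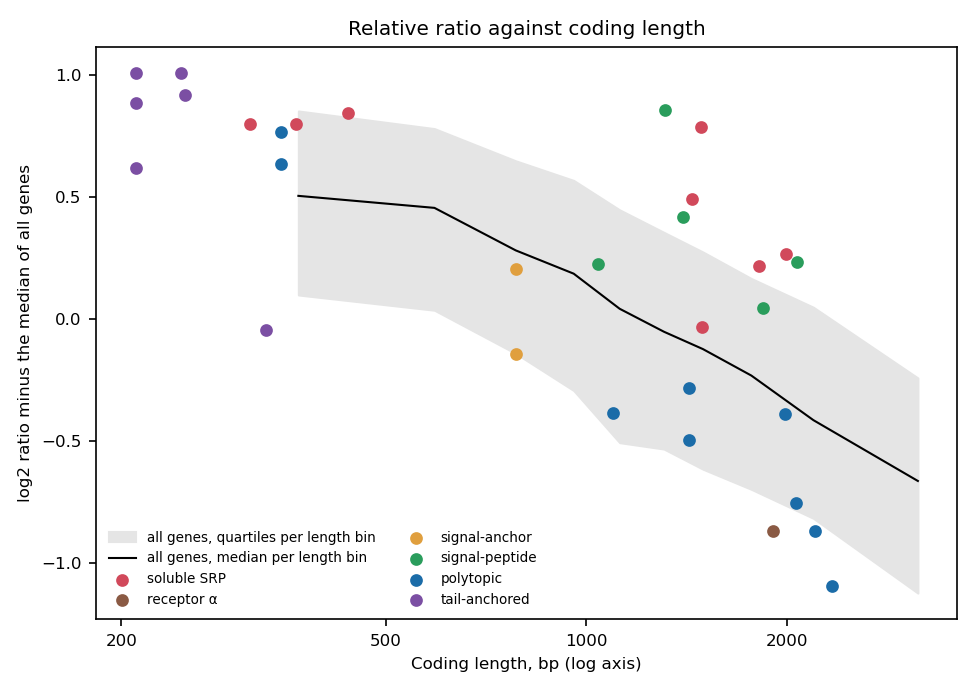
Relative ratio of the 31 genes against coding length in bp on a log axis, coloured by kind of protein, with the median (line) and quartiles (grey) of all genes in each of 10 length bins. The tail-anchored subunits at 210 to 330 bp and STT3 at 2208 and 2340 bp sit at opposite ends, and the SRP and signal-peptide OST genes from 1314 bp lay above the line.

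Subunits that work as 1 complex can be compared after summing the genes of each subunit per kb. In mRNA-seq the 6 OST subunits lay within 1.496-fold of one another, from 56.7 RPM per kb for OST3/6 to 84.8 RPM per kb for DAD. In ribo-seq they spread over 3.41-fold, from 19.7 RPM per kb for STT3 to 67.1 RPM per kb for DAD. STT3 changed its place most. It was the highest but for DAD in mRNA-seq, at 82.1 RPM per kb, and the lowest in ribo-seq, below the 32.8 RPM per kb of OST3/6. The other OST subunits had 45.3 (OST1), 37.8 (HAP6) and 60.5 (DGL1) RPM per kb in ribo-seq, and 74.7, 64.1 and 66.3 RPM per kb in mRNA-seq.

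The channel subunits also spread more widely in ribo-seq than in mRNA-seq. SEC61α, β and γ had 165, 205 and 274 RPM per kb in mRNA-seq, a spread of 1.67-fold. In ribo-seq the levels were 65.6, 186 and 260 RPM per kb, a spread of 3.95-fold. STT3 and SEC61α were the lowest of their complexes in ribo-seq, but SEC61α was already the lowest in mRNA-seq, unlike STT3. Both also have the longest coding sequences of their complex, and the ratio fell with length over all genes (rho -0.46). These sums were not adjusted for length, and its part in them was not tested.

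The SRP subunits ran from 24.2 (SRP72) to 40.3 (SRP54) RPM per kb in mRNA-seq, 1.66-fold, and from 14.5 (SRP72) to 32.7 (SRP54) RPM per kb in ribo-seq, 2.26-fold. SRP72 and SRP68, partners in a heterodimer, were close in ribo-seq at 14.5 and 15.6 RPM per kb. SRP19, SRP14 and SRP9 had 32.4, 27.3 and 21.4 RPM per kb, all above the large pair. The receptor went the other way. SRα and SRβ were at 54.0 and 37.1 RPM per kb in mRNA-seq but at 14.5 and 17.4 RPM per kb in ribo-seq, so the order of the partners turned and the spread narrowed from 1.45-fold to 1.20-fold. SEC62 had 21.7 and 7.80 RPM per kb, and ERdj2 48.8 and 14.8 RPM per kb, in mRNA-seq and ribo-seq respectively.

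**Figure D4:**
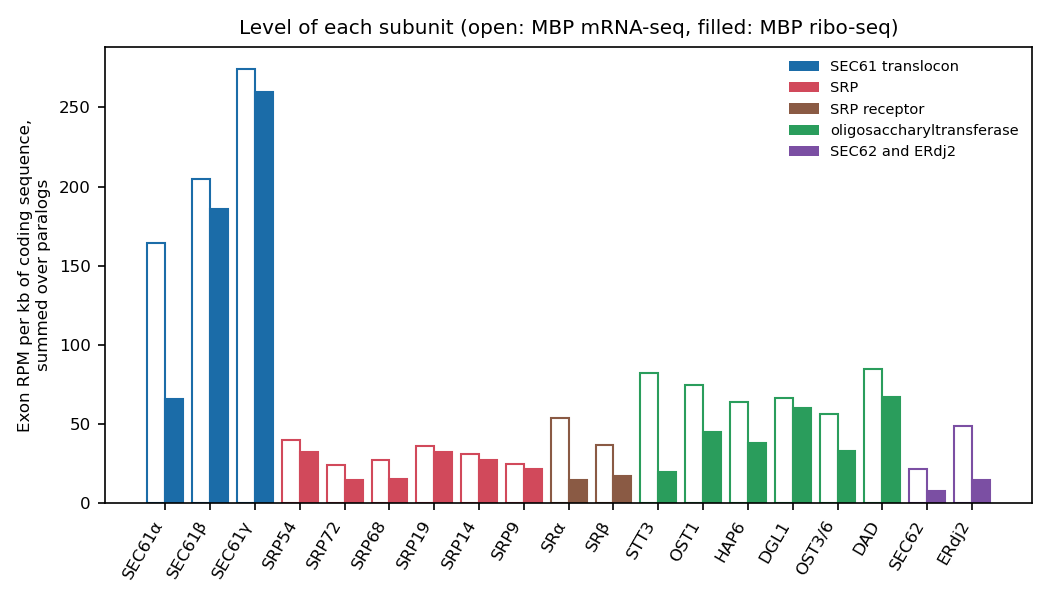
Exon RPM per kb of coding sequence, summed over the genes of each subunit, with open bars for MBP mRNA-seq, filled bars for MBP ribo-seq and colours for the complex. The 6 OST subunits were level in mRNA-seq (56.7 to 84.8) and uneven in ribo-seq (19.7 to 67.1), and SEC61α was at 165 in mRNA-seq and 65.6 in ribo-seq while SEC61β and SEC61γ lay close together in the 2 libraries.

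In 10 of the 19 subunits more than 1 gene contributes, and in most of them a single gene held the larger part of the ribosome-protected reads. AT1G61790 held 98.8% of the OST3/6 level per kb in ribo-seq (98.3% in mRNA-seq), AT2G45070 93.3% of SEC61β (88.9%), AT1G48900 89.1% of SRP54 (83.5%) and AT2G34250 84.3% of SEC61α (81.9%). ERdj2A held 75.7% (79.2%), DAD1 71.6% (73.2%), STT3A 69.1% (71.7%) and AT2G01720 66.8% of OST1 (60.6%). SRβ was the most evenly shared pair, with 58.3% from AT5G05670 (63.9%), and the SEC61γ genes AT4G24920 and AT5G50460 held 46.0% and 45.7% of their subunit (42.9% and 46.5%). At up to 2 mismatches, 34.4% of the 28-base windows of this SEC61γ pair and 35.5% of those of the DAD pair matched the other copy, so these splits are uncertain too.

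Some minor copies had a smaller share in ribo-seq than in mRNA-seq, beyond counting error. AT5G60460 made up 10.9% of the SEC61β reads in mRNA-seq (Wilson 95% interval 9.95 to 12.01) and 4.88% in ribo-seq (3.98 to 5.98). AT5G49500 made up 7.02% of the SRP54 reads in mRNA-seq (6.27 to 7.86) and 3.21% in ribo-seq (2.50 to 4.11). For AT3G48570 the values were 10.6% (9.67 to 11.6) and 8.26% (7.15 to 9.51) of the SEC61γ reads. The intervals do not cover how reads were assigned between copies. Of the 28-base windows of AT5G49500, 40.9% matched another SRP54 copy at up to 2 mismatches. In the STT3 and DAD pairs the ribo-seq and mRNA-seq intervals overlapped, as for STT3A with 70.3% (68.1 to 72.4) and 72.9% (72.1 to 73.6) of the reads. In other pairs the major copy differed between the libraries, in either direction. AT2G01720 held 53.7% (52.6 to 54.8) of the OST1 reads in mRNA-seq and 60.3% (58.4 to 62.1) in ribo-seq, and ERdj2A held 79.8% (78.8 to 80.7) and 76.4% (73.8 to 78.7) of the ERdj2 reads.

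Most ribosome-protected reads of these genes lay in the coding exons. Over all members, exons held 98.3% of the ribo-seq reads and 84.7% of the mRNA-seq reads. The 5′ UTRs held 0.888% (Wilson 95% interval 0.787 to 1.003) of the reads in ribo-seq and 4.76% (4.63 to 4.88) in mRNA-seq. In the 3′ UTRs the shares were 0.806% (0.709 to 0.915) and 10.5% (10.3 to 10.7). The soluble subunits had 1.48% of their ribo-seq reads in 5′ UTRs (79 reads) and the membrane subunits 0.769% (174 reads), with intervals of 1.19 to 1.84 and 0.663 to 0.891. In mRNA-seq the order was the same, with 6.80% for soluble and 4.52% for membrane subunits.

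UTR occupancy compares, on the log2 scale, how large the UTR value is beside the exon value in ribo-seq and in mRNA-seq, with 0.5 RPM added to each value, where the mean UTR level was at least 0.5 RPM. For the 5′ UTR, 28 members had a row and 21 passed, with a median occupancy of -1.44 against -0.87 over 7029 genes. In most of the 21 the ribo-seq 5′ UTR value was below the 0.5 RPM added, so their occupancy depends strongly on that addition. AT1G29310, DAD2 and ERdj2B, for example, had 1 such read each. Of these 21, only STT3B was above 0, as were 24.2% of all genes, and its 0.66 rested on 4 ribo-seq reads in the 5′ UTR. Its plain 5′ UTR share of reads was lower in ribo-seq (0.769%) than in mRNA-seq (1.68%), so the positive sign came from the 0.5 RPM added. At the other end, SEC61β AT2G45070 had 36 ribo-seq and 732 mRNA-seq reads in its 5′ UTR and an occupancy of -2.92. SRP14 and SRP19 had the largest 5′ UTR shares in ribo-seq, at 4.70% (19 reads) and 5.22% (30 reads) of their reads, where mRNA-seq had 24.6% and 14.3%. The annotated 5′ UTR held an ATG in 14 of 32 members (43.8%), against 61.7% of 16298 genes, and STT3A has 5 and SRP72 11 such triplets. STT3A had 6 and SRP72 had 1 ribo-seq read in the 5′ UTR. The ATGs were counted in the TAIR10.1 models and the reads in the TAIR10 features of the authors, and these can differ. AT5G60460, for example, has an annotated 5′ UTR of 322 bases but no 5′ UTR row. Whether these ATGs lie in the stretch where reads were counted was not examined.

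In the 3′ UTR, 29 members had a row and 26 passed, with a median occupancy of -2.32 against -1.92 over 11238 genes. The order turned with a mean 3′ UTR level of at least 2 RPM, at -2.90 for 13 members and -3.21 for all genes. None of the 26 was above 0, as were 6.99% of all genes. Of the 29 members, 20 had 0 ribo-seq reads in the 3′ UTR and 7 had 1 to 3. AT2G45070, for example, had 0 ribo-seq reads where mRNA-seq had 1299, and AT2G34250 had 2 where mRNA-seq had 1755. Few such reads were usual among all genes. Over 15612 genes with a 3′ UTR value, the median 3′ UTR share of ribo-seq reads was 0% and the upper quartile 0.0471%.

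The other 2 members were the SEC61γ genes AT4G24920 and AT5G50460, which held 224 of the 234 ribo-seq 3′ UTR reads of the pathway. AT4G24920 had 137 reads there, 12.1% of its ribo-seq reads, and AT5G50460 had 87, or 8.26%. The third SEC61γ gene, AT3G48570, had 0 such reads, while its 3′ UTR held 297 reads in mRNA-seq (39.4%). The genes differ in where the last intron lies. The last 15 coding bases and the first 15 bases after them follow, with the stop codon in capitals, all on the minus strand. They are shown because the annotated intron falls directly behind the stop codon in the first pair.
AT4G24920: gtcggtgctactTAGataacaaagggaaga
AT5G50460: gtcggtgccactTAGaaagcaaaggataca
AT3G48570: gttggatcttctTAGtgtagtactttcttt
In AT4G24920 the coding bases end at 12820257 of chromosome 4 and the 3′ UTR resumes at 12819739, and in AT5G50460 they end at 20552168 of chromosome 5 and the 3′ UTR resumes at 20551669. In AT3G48570 (chr3:18004589-18004618) the intron starts 20 bases after the stop codon.

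Outside the start of chromosome 1, which was left out over a length equal to the plastid genome, 15 genes with a 3′ UTR value had their stop codon on the last base of an exon, and 5 of them (33.3%) had at least 5% of their ribo-seq reads in the 3′ UTR. Without the SEC61γ pair it was 3 of 13 (23.1%). Of 14877 genes with no intron after the stop codon 0.652% reached that share, and of 362 genes with an intron 1 to 30 bases after it 3.31% did. With the intron farther away it was 6.15% of 358 genes. This geometry and the 3′ UTR share moved together in few genes, and its part in the values of AT4G24920 and AT5G50460 was not tested. Of the other members only DAD2 had an intron in its 3′ UTR, 248 bases after the stop codon, with 0 ribo-seq and 147 mRNA-seq reads there.

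**Figure D5:**
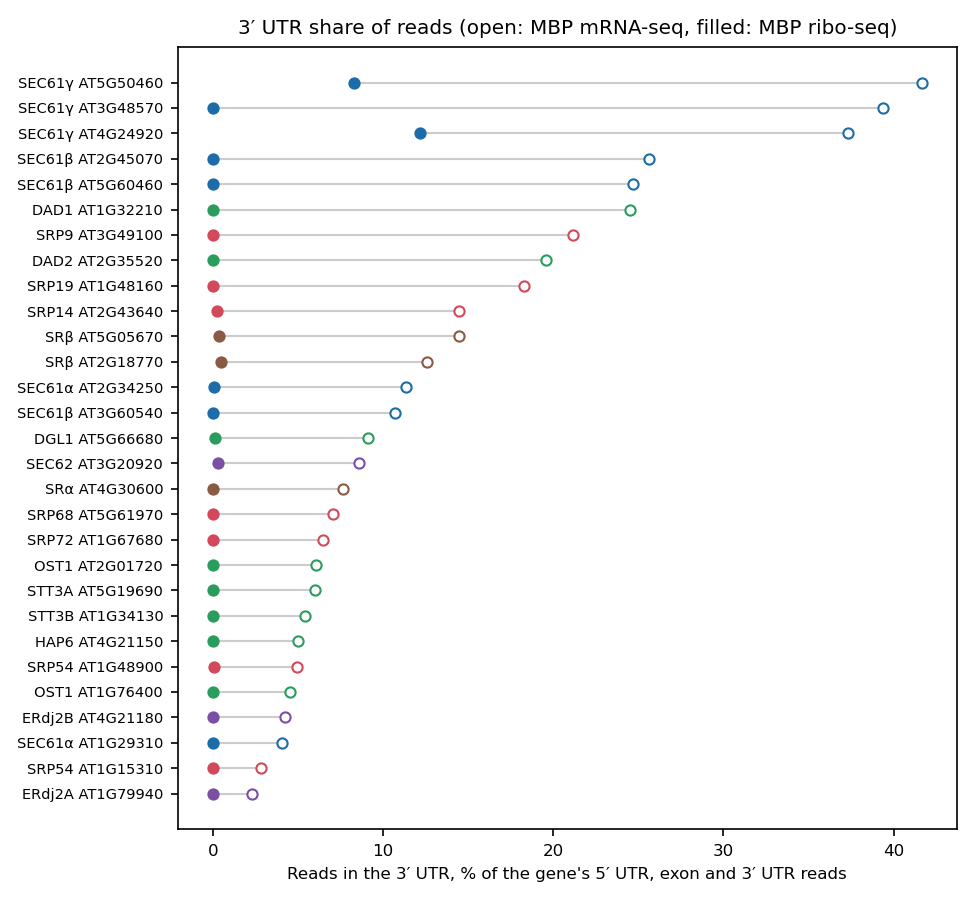
Share of each gene's reads that lay in the 3′ UTR, in percent of its 5′ UTR, exon and 3′ UTR reads, with filled points for MBP ribo-seq and open points for MBP mRNA-seq, for the 29 genes with a 3′ UTR row. The SEC61γ genes AT4G24920 (12.1%) and AT5G50460 (8.26%) were the only ones with a ribo-seq share clearly apart from 0.

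Genes of related functions were described from 5 lists, by counts and medians of the same relative ratio. Whether each listed gene acts at the ER was not examined. Signal peptidase, which removes signal peptides at the channel, had a median of 0.56 over 8 genes with 0 genes 2-fold from the median of all genes. Its highest gene was AT1G52600 (0.79) and its lowest AT5G27430 (-0.24). The list for the GET pathway, which inserts tail-anchored proteins, had a median of 0.46 over 6 genes, with AT4G32680 lowest (0.11). In it 1 gene was 2-fold up, as were 5.59% of all genes (AT5G60730, 1.17). AT5G60730 had only 1.61 ribo-seq RPM and 1.30 mRNA-seq RPM, and its annotation names it just as an anion-transporting ATPase. The ER membrane complex, an insertase for many-spanning proteins, had 0.34 over 10 genes, with AT5G49540 highest (1.11, the 1 gene 2-fold up) and AT5G11560 lowest (-0.09). All of these lists had medians above 0, as had the members. Relative to genes of the same length bin, the medians were 0.07 for signal peptidase, 0.26 for the GET pathway and 0.14 for the ER membrane complex.

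The remaining lists lay below 0. The enzymes that build the lipid-linked oligosaccharide, the substrate of OST, had a median of -0.66 over 15 genes, with 5 of 15 2-fold down where 11.8% of all genes were, only 1 above 0 (AT1G20575, 0.79) and AT2G44660 lowest (-1.92). Their median stayed at -0.61 relative to genes of the same length. The plastid counterparts of SRP and SEC had -0.63 over 9 genes, with 2 of 9 2-fold down, AT4G14870 (the plastid counterpart of SEC61γ) highest at 0.77 and AT2G28800 lowest at -1.17. Their median within length bins was -0.36. Whether any list differs from the members was not tested.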

How the data were processed

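Wild-type MBP ribo-seq and MBP mRNA-seq were analysed, with 1 library each and group names from the GEO labels. The authors aligned reads with TopHat2 2.0 and counted those overlapping a TAIR10 feature by at least 80% with bedtools 2.23.0. The deposited values are RPM per isoform for 5′ UTR, exon and 3′ UTR. The mRNA-seq exon column, also named RPM by the authors, exceeds in sum what its name allows because a read counts for every isoform, and was treated as a deposited signal. Default settings were used. For mRNA-seq in general the authors discarded multi-mapping reads. Whether they did so for these files, and how strand was handled, is not given in the sources used here. Columns with the sum of both libraries were not used, and 0 value columns were unmapped.

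The low values are whole multiples of 1 step, and 99.9% of values above 0 in each library came out whole within 0.1 reads. This gave the read numbers and the counting intervals. Of several isoforms, that with the highest mean exon RPM stood for the gene. Ratios took a pseudocount of 1 and a mean exon RPM of at least 1. A 2-fold call is a difference of size, with no test. With 1 library per group no model across genes could be fitted to replicates, so a binomial test of recovered reads served as an alternative.

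Members, classes and lists were chosen with earlier results of these data known. All 33 members are accounted for, and of each list only the highest and lowest genes are named. AT5G51510 was left out of the ER membrane complex list, since the reference annotates it as another protein. Lengths, coordinates and sequences came from the RefSeq TAIR10.1 annotation, which gave a coding length for 25034 of 25224 genes. Scripts ran under Python 3.11.15 with pandas 2.3.3, numpy 2.4.6, scipy 1.17.1 and matplotlib 3.10.9, and the ratio was tested on simulated reads. Alternatives covered pseudocount, filters, scaling, isoforms, length, classes and thresholds.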

Additional observations from a re-analysis of the deposited data

How the results depend on the processing

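No paired analysis was possible because each group holds 1 library, and for the same reason no replicate could be left out. The median relative ratio of the members was 0.39 with a pseudocount of 0.1, 0.11 with 5, 0.34 with each library rescaled to its exon sum and -0.13 without an expression filter. The number of members 2-fold from the median was 5 with a pseudocount of 0.1 (5 up and 0 down, against 8.91% and 15.9% of all genes), 0 relative to genes in the same bin of coding length (3.23% and 9.38%) and 0 at 4-fold (0.432% and 1.72%). At 1.5-fold it was 16 (12 up and 4 down, against 19.3% and 23.6% of all genes). A binomial test of the recovered reads against the library sums called 25 members at an adjusted p under 0.05 (13 up and 12 down), against 3834 genes up (22.7%) and 9911 down (58.7%), and it compares these libraries only. The difference between membrane and soluble subunits was -0.80 without members that have a close copy, -0.74 when only the 22 genes averaging 10 exon RPM or more were kept, and -0.69 without tail-anchored subunits. With close copies left out, the soluble genes were SRP68, SRP19, SRP14 and SRP9 only. All 14 alternatives were below 0, and 13 lay within 0.37 of -0.42, the combined counting half-width of the genes nearest the class medians. Among genes under 500 bp, a split outside these 14, the difference was 0.03. In the 5′ UTR the members' median occupancy moved to -2.31 under a pseudocount of 0.1 and to -2.04 with a mean UTR level of at least 2 RPM, where 7 members were left. The 3′ UTR median moved with the pseudocount, as did that of all genes: -4.34 against -3.92 for 0.1, and -1.55 against -1.17 for 1. With a mean UTR level of at least 2 RPM it was -2.90 over 13 members, above the -3.21 of all genes, so members were not below all genes under every setting. Shares of the leading copy in ribo-seq moved when isoforms were summed, which counts a read once for each isoform: to 91.5% for SEC61α, 97.5% for SEC61β, 93.9% for SRP54, 73.7% for SRβ, 55.7% for DAD and 92.3% for ERdj2. Without division by length the share was 60.3% for OST1. Apart from the construction of these alternatives, the cause of each shift was not tested. Depth limits AT3G60540, AT5G60460 and AT5G49500, each with under 100 ribo-seq exon reads, many 5′ UTR values and nearly all 3′ UTR values.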
